A study of Mus musculus with 4 samples.

Results

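The Ccl5 CD8 T cells of the bone marrow of 5TMM mice are described here. They were chosen by the number of unique molecular identifiers (UMIs, counted transcript molecules) of a few genes in each cell, among cells with at least 300 detected genes and at most 20% mitochondrial UMIs. A cell was taken with at least 2 UMIs of the CD3 chains Cd3d, Cd3e and Cd3g together, at least 1 UMI of the CD8 chains Cd8a and Cd8b1, at least 2 UMIs of the chemokine Ccl5, no UMI of the inhibitory lectin receptor Klrc1 or of the regulatory T cell factor Foxp3, and at most 1 UMI of the neutrophil genes Mmp8, Mmp9 and Cxcr2. This rule found 215 cells of 39743, 31 of them in the first and 27 in the second vehicle-treated mouse, and 98 and 59 in those given purinostat mesylate (PM).

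PM is an inhibitor of class I and IIb histone deacetylases, and the 5TMM model carries 5TGM1-luc myeloma cells, injected intravenously into C57BL/KawRij mice that were 6 weeks old. After 3 weeks the tumor-bearing mice received vehicle (n = 2) or 10 mg/kg PM (n = 2), and marrow cells freed of erythrocytes were taken after 24 h and sequenced as 1 droplet library (10x Genomics 3' kit) per mouse. All 4 mice carried the myeloma, and no tumor-free marrow stands beside them. The libraries held 86052982 and 69828595 UMIs in vehicle 1 and 2 and 109447030 and 74388936 in PM 1 and 2, and the Ccl5 CD8 T cells contributed 122737, 120176, 546155 and 285631 of these, a depth that limits the precision for all but abundant genes.

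CD8 T cells recognize peptides on MHC class I molecules and kill the presenting cell with perforin and granzymes or through Fas ligand. Antigen-experienced and cytokine-driven memory CD8 T cells transcribe Ccl5 as a ready store of chemokine, whereas naive CD8 T cells hardly do so. The bone marrow is a known reservoir of memory CD8 T cells, which depend there on IL-15, signaled through Il2rb, and on IL-7.

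The cells carried the CD8 program that the rule asked for, with Ccl5 at 3031, 3137, 2054 and 1547 counts per 1000000 UMIs (CPM, of the summed UMIs of these cells) in vehicle 1, vehicle 2, PM 1 and PM 2, Cd8a at 587, 682, 397 and 479.6 CPM and Cd8b1 at 383, 458, 430.3 and 479.6 CPM. These genes chose the cells, and their values are given without a test. The median cell held 9, 11, 10 and 6 Ccl5 UMIs. Just inside the limit were 1, 1, 6 and 9 cells with 2 Ccl5 UMIs, and just outside it 1, 1, 12 and 10 cells with a single one.

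Markers of memory CD8 T cells that the rule did not use were detected as well. Il2rb, the beta chain of the IL-15 receptor, was detected in 87.1, 85.2, 88.8 and 88.1% of the cells, Eomes, a T-box factor of memory CD8 T cells, in 54.8, 62.96, 54.1 and 55.9%, and Cd44, an adhesion molecule that is raised on memory T cells, in 51.6, 59.3, 58.2 and 59.3%. These shares lay close together in the 4 mice. Among CD8 T cells with at least 2 Ccl5 UMIs and a Klrc1 UMI, which the rule left out, Eomes was detected in 60, 64, 66.7 and 77.6%. Il2rb was detected there in 96% (vehicle 1), 92% (vehicle 2) and 94.7% (PM 1). Eomes and Il2rb thus do not set the Ccl5 CD8 T cells apart from those cells. Ly6c2, a surface protein of memory CD8 T cells that monocytes also carry, was detected in 54.8, 70.4, 84.7 and 88.1%. It was higher in both PM mice than in both vehicle mice. In B cells of the same libraries (cells with at least 3 UMIs of Cd79a and Cd79b and none of CD3), taken as a background for free RNA, Il2rb was found in 1.84, 1.07, 1.44 and 2.04% and Eomes in at most 0.215%. Ly6c2 was found there in 37.9, 18.6, 46.6 and 41.5%, a smaller share in each library that was also higher in both PM mice. The positive B cells (144, 209, 874 and 386) held 7461, 6322, 20324 and 13432 UMIs of it. The positive Ccl5 CD8 T cells (17, 19, 83 and 52) held 170, 181, 782 and 444. The share in B cells is thus not a measure of free RNA alone, and the part of free RNA in the difference of Ly6c2 detection was not tested. Cd44, which B cells also transcribe, was found there in 51.8, 36.1, 43.7 and 41.9%, so that vehicle 1 was not above this background and Cd44 does not set these cells apart.

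Effector transcripts were found in fewer of the cells. Gzmk, a granzyme of memory CD8 T cells and another marker proposed for these cells, was detected in 10 of 31, 8 of 27, 9 of 98 and 8 of 59 cells, and in no B cell. Gzma or Gzmb, the granzymes of full effectors, was detected in 4, 3, 10 and 2 cells and the inhibitory receptor Pdcd1 in 2, 1, 1 and 1. Cells with neither Gzmk nor Eomes numbered 12, 8, 41 and 22. Transcripts of proliferation (Mki67 or Top2a) were found in 25.8, 25.9, 9.18 and 8.47% of the cells and in 36.6, 24.1, 25.8 and 27.6% of B cells. Whether B cells transcribe these genes themselves was not tested, so that this comparison cannot decide on cycling. The share was lower in both PM mice. The UMIs of these genes (26, 22, 226 and 7) did not follow the share of cells, and no cycling is read from it. A granzyme of these 3 was found in 13, 9, 17 and 8 cells (41.9, 33.3, 17.3 and 13.6%), a smaller share in both PM mice. The cells are called by their rule.

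A part of the cells carried transcripts of innate-like T cells. At least 1 UMI of Trdc, Tcrg-C1, Tcrg-C2, Tcrg-C4, Zbtb16 or Klrb1c (gamma delta receptor chains, the NKT cell factor PLZF and the NK1.1 receptor) was found in 16 of 31, 9 of 27, 22 of 98 and 12 of 59 cells, which is 51.6, 33.3, 22.4 and 20.3%, against at most 2.89% of B cells. Most of it was the gamma constant chains (41.9, 29.6, 17.3 and 18.6%), which alpha beta T cells can also transcribe. The delta chain Trdc was found in 0, 0, 3 and 1 cells and Zbtb16 in none, and the gamma delta and NKT genes Trdv4, Trav11 and Il17a were at 0. Trdv4 and Trav11 are V genes, which the 3' libraries seldom captured (any Trav gene in 3, 4, 7 and 3 cells). Their absence therefore cannot decide whether such cells were present. Cd8a without Cd8b1 was seen in 14, 4, 22 and 12 cells. The share of cells with innate-like transcripts was highest in vehicle 1 and lowest in both PM mice, and its part in the differences given next was not tested, apart from the counts and fold changes without these cells.

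**Figure D1:**
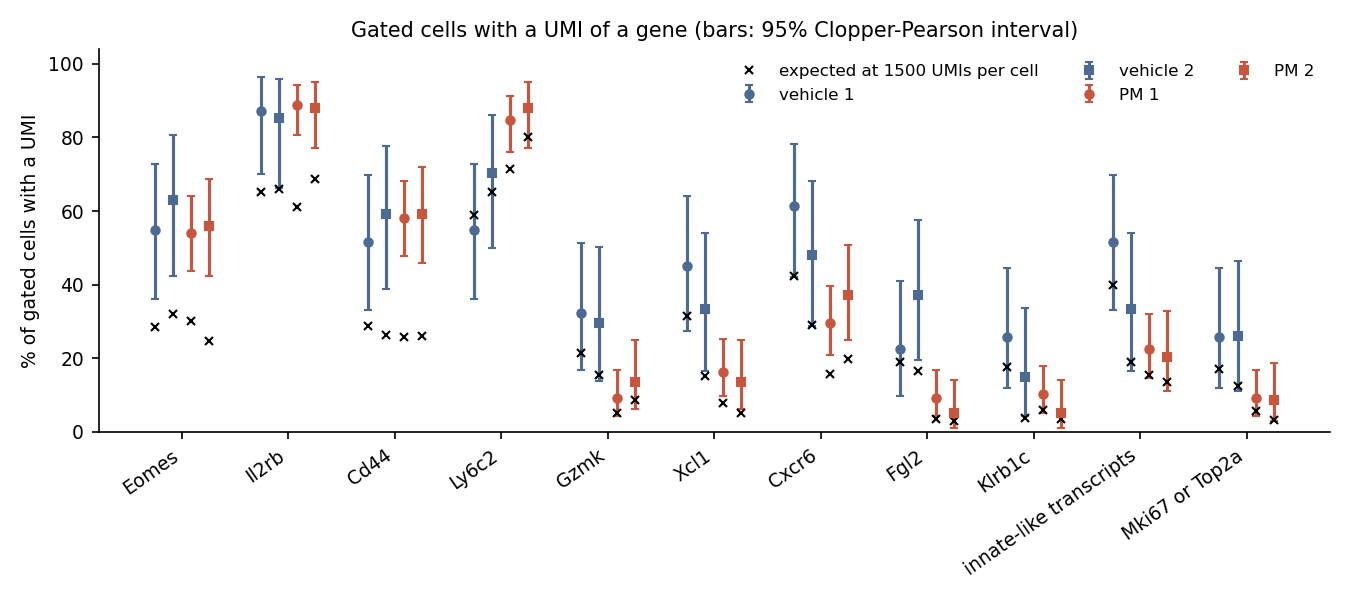
Percent of Ccl5 CD8 T cells with at least 1 UMI of each gene or gene group (y axis, 0 to 100%), for vehicle 1, vehicle 2, PM 1 and PM 2. Crosses give the share expected if every cell were thinned to 1500 UMIs. Eomes lies between 54.1 and 63.0% in the 4 mice, whereas Gzmk, Xcl1, Fgl2 and the innate-like transcripts are lower and Ly6c2 is higher in both PM mice.

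Since the cells of vehicle 1 were shallower (median 3195 UMIs, against 4170, 4503 and 4980), each share was also computed for cells thinned to 1500 UMIs, which left out 5, 0, 0 and 1 of the cells. At this depth Gzmk was expected in 21.5, 15.5, 4.95 and 8.69% of the cells, Xcl1 in 31.5, 15.2, 7.91 and 5.03% and innate-like transcripts in 39.9, 19.05, 15.4 and 13.6%. The order of the groups was thus the same at equal depth for these 3 features. Eomes was expected in 28.3, 31.9, 30.1 and 24.7%, with overlapping groups.

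Neutrophil transcripts were concentrated in a few cells of vehicle 1 and PM 1. Summed over 16 neutrophil genes the level was 39914 CPM in vehicle 1, 1872 in vehicle 2, 11766 in PM 1 and 2076 in PM 2, with S100a8 (13606, 516, 3248 and 560.2 CPM) as the most abundant. A single cell of vehicle 1 with 13196 UMIs held 34.97% neutrophil transcripts, and PM 1 held cells with up to 19.6% neutrophil or 17.8% erythroid transcripts. Cells with more than 1% of their UMIs from neutrophil, B and plasma cell, monocyte or erythroid transcripts, called mixed cells from here on, numbered 1, 0, 9 and 0, of which 1 and 7 were called as doublets in vehicle 1 and PM 1. Without them the neutrophil sum was 2593, 1872, 3318 and 2076 CPM. This limit of 1% was chosen after the values were seen, and the counts of called genes and each called gene are given with and without the mixed cells. Other values are those of all cells unless stated.

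**Figure D2:**
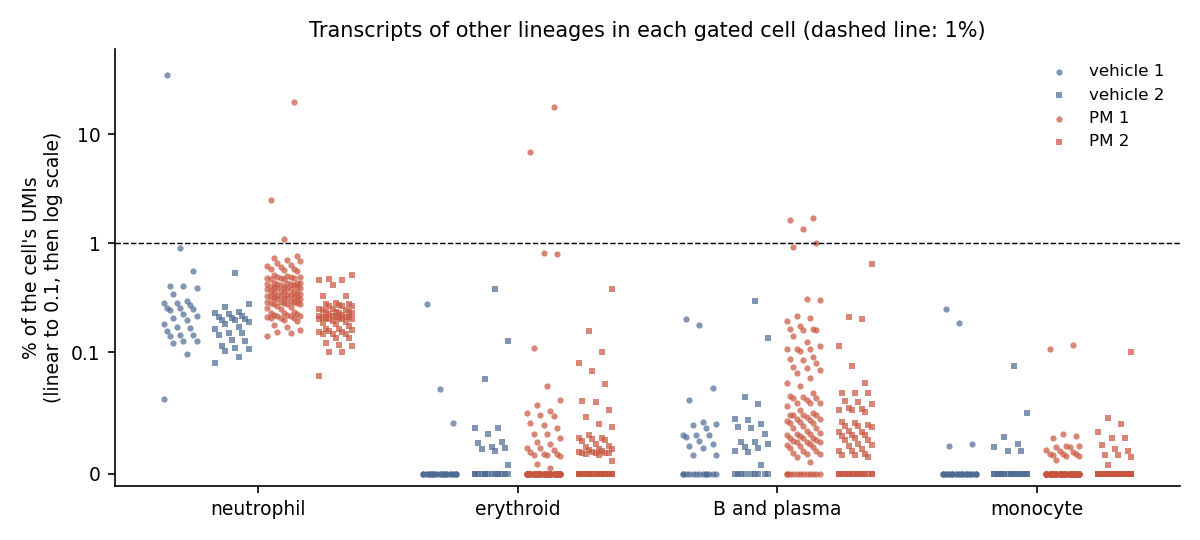
Percent of each Ccl5 CD8 T cell's UMIs that come from neutrophil, B and plasma cell, monocyte and erythroid transcripts, by mouse; the dashed line is the 1% limit. The cells above it lie in vehicle 1 (1 cell) and PM 1 (9 cells), and none lies above it in vehicle 2 or PM 2.

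Of the other marker lists, the 11 B cell genes summed to 8.15, 8.32, 954 and 266 CPM, led by Cd74, and to 9.13, 8.32, 260.3 and 266 CPM without mixed cells. Plasma cell genes summed to 587, 291, 588 and 420.1 CPM, led by Igkc, with Sdc1 and Tnfrsf17 at 0, and to 584, 291, 529 and 420.1 CPM without mixed cells. Monocyte genes summed to 3471, 1872, 2082 and 1933 CPM, led by Ly6c2, which these T cells share, and to 2547, 1872, 1740 and 1933 CPM without mixed cells. Erythroid genes reached 114, 325, 2708 and 287 CPM with Alas2 at 0, and 128, 325, 1262 and 287 CPM without mixed cells, and of 6 platelet genes 5 were at 0. NK cell genes summed to 1018, 524, 712 and 445 CPM, led by Eomes, which these T cells share, and Ncr1 was found in 1, 0, 1 and 0 cells. Cd4, Cd40lg and Foxp3 were at 0 in all 4 sums.

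The first question was whether these cells became more frequent 24 h after PM. They made up 0.335% (95% Clopper-Pearson interval 0.228 to 0.475) of the kept cells in vehicle 1, 0.345% (0.227 to 0.502) in vehicle 2, 0.732% (0.595 to 0.891) in PM 1 and 0.637% (0.485 to 0.820) in PM 2. The mean was 0.340 ± 0.00726% (SD, n = 2) in vehicle and 0.684 ± 0.0675% (SD, n = 2) in PM mice, a ratio of 2.01. Both PM mice were above both vehicle mice, and the difference exceeded the spread within the groups, but 2 against 2 mice cannot give less than the p = 0.333 that the exact two-sided permutation test returned. The intervals cover counting error only. With every cell thinned to 1500 UMIs the shares were 0.158, 0.222, 0.385 and 0.279%, with the groups still apart.

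Against narrower denominators the picture was different. Among all CD3-positive cells of the T cell gate the share was 16.8, 15.7, 17.9 and 15.7%, with overlapping groups and a ratio of 1.03. Among the CD8 T cells that met the rule before its Ccl5 term (33, 44, 196 and 121 cells) the share was 93.9% (79.8 to 99.3) in vehicle 1, 61.4% (45.5 to 75.6) in vehicle 2, 50% (42.8 to 57.2) in PM 1 and 48.8% (39.6 to 58.0) in PM 2. It was lower in both PM mice, with a ratio of the means of 0.636 and an exact permutation p = 0.333. Vehicle 1 and vehicle 2 differed more from each other here than vehicle 2 from the PM mice. Ccl5-negative CD8 T cells numbered 1, 16, 86 and 52. The cells of the T cell gate as a whole numbered 184, 172, 549 and 376, also more in both PM mice. Neutrophils were 77.3, 59.5, 64.4 and 64.7% of the kept cells, and of the cells other than neutrophils the Ccl5 CD8 T cells were 1.47, 0.853, 2.06 and 1.80%.

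**Figure D3:**
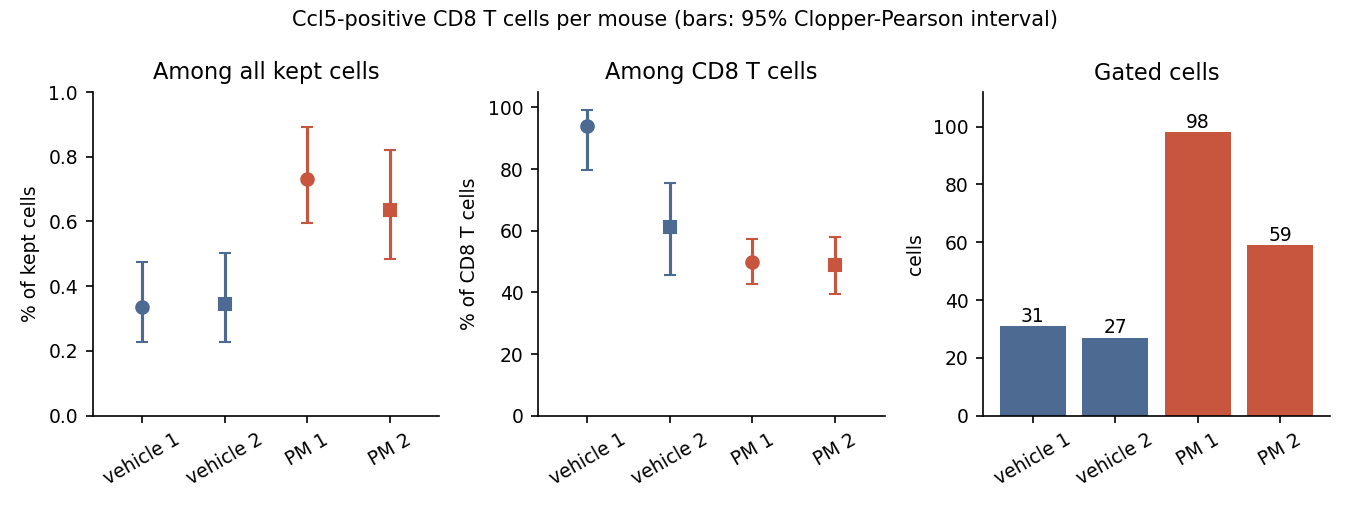
Ccl5 CD8 T cells in each mouse as a percent of all kept cells, as a percent of CD8 T cells, and as a number of cells; bars on the shares are 95% Clopper-Pearson intervals. The PM mice (0.732 and 0.637% of kept cells) are above the vehicle mice (0.335 and 0.345%), and below them as a share of CD8 T cells.

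The second question was how expression within the cells differed. UMIs were summed over the cells of each mouse, so that the mouse was the replicate, and tested by edgeR's quasi-likelihood test, with a call at a Benjamini-Hochberg adjusted p under 0.05 and an absolute log2 fold change over 0.5. In such sums fewer cells of a kind and less RNA per cell cannot be told apart. Of 3860 genes tested, 3 were called (0.0777%), 2 higher (0.0518%) and 1 lower (0.0259%) after PM, and 204 (5.28%) and 164 (4.25%) were higher and lower at an unadjusted p under 0.05. Without mixed cells, 11 of 3803 genes were called (0.289%), 4 higher (0.105%) and 7 lower (0.184%), with 226 (5.94%) higher and 187 (4.92%) lower at an unadjusted p under 0.05. Of all tested genes 50.5% had a log2 fold change above 0. The 3 genes called with all cells were among the 11. The count depended on single libraries, with 0 genes called by edgeR without vehicle 1 (236 higher and 180 lower at an unadjusted p under 0.05), 20 without vehicle 2, 12 without PM 1 and 40 without PM 2, and with 17, 43, 16 and 65 in that order without mixed cells. It was 0 without the cells that bear innate-like transcripts (150 higher and 113 lower at an unadjusted p under 0.05). In that fit Gm26917 had a log2 fold change of 1.21 (edgeR Benjamini-Hochberg adjusted p = 0.153). That of 5830411N06Rik was 7.78 with the same adjusted p, and rests on 0 vehicle UMIs. Without innate-like and mixed cells the count was 13 (8 higher and 5 lower). Of the 11 genes, described next, those not among these 13 were Xcl1 (log2 fold change -1.72, edgeR Benjamini-Hochberg adjusted p = 0.283), Cxcr6 (-1.40, edgeR Benjamini-Hochberg adjusted p = 0.0756) and Serpina3g (-1.64, edgeR Benjamini-Hochberg adjusted p = 0.0702), and Fgl2 and Mdfic, which did not pass the filter there. With called doublets left out it was 44, 24 higher and 20 lower.

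One of the 2 genes called higher was 5830411N06Rik (ENSMUSG00000054672, chr7:140247284-140300736, plus strand, GRCm38, protein coding), which belongs to the scavenger receptor cysteine-rich family. It had 0 UMIs in both vehicle mice and 56 and 45 UMIs, 103 and 158 CPM, in PM 1 and PM 2. Against a floor of 3 UMIs per vehicle library it was at least 5.26-fold higher after PM, and at least 5.07-fold without mixed cells (edgeR Benjamini-Hochberg adjusted p = 0.0202 with all cells and 0.00273 without mixed cells). It passed the filter on low counts through the PM mice alone, so that its call adds nothing to these counts. It was detected in 0 of 31, 0 of 27, 21 of 98 and 16 of 59 cells and in no B cell, where counts of 0 allow up to 11.2 and 12.8% of cells with a UMI in the vehicle mice by the 95% interval, which covers the sampling of cells and not transcripts that were missed in a cell. With 58 vehicle cells in all, the gap rests on few cells, and among the Klrc1-positive cells that the rule left out it was found in 4.00, 0, 10.5 and 10.4%.

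Gm26917 (ENSMUSG00000097971), annotated as a lincRNA at chr17:39843013-39846341, had 904 CPM in vehicle 1, 990.2 in vehicle 2, 1793 in PM 1 and 2342 in PM 2, with log2 fold change 1.19 ± 0.19 (SE, edgeR Benjamini-Hochberg adjusted p = 0.0338) and 1.17 ± 0.18 without mixed cells (edgeR Benjamini-Hochberg adjusted p = 0.00336). All values of PM mice were above those of vehicle mice. The gene ends 11 bases before a gene annotated as rRNA on the other strand (CT010467.1), so that reads of ribosomal RNA may be counted for it. Among all cells outside the T cell gate it had 134, 164, 170.1 and 215 CPM, a lower level in every library that was also higher in both PM mice.

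Fgl2 (ENSMUSG00000039899, chr5:21372642-21378374, plus strand), an immunoregulatory fibrinogen-like protein secreted by T cells and macrophages, was the called gene that fell. It had 163 CPM in vehicle 1, 108 in vehicle 2, 21.97 in PM 1 and 21.01 in PM 2, and fell by 2.56 on the log2 scale (SE 0.44, edgeR Benjamini-Hochberg adjusted p = 0.0428). Without mixed cells the log2 fold change was -2.62 ± 0.46 (edgeR Benjamini-Hochberg adjusted p = 0.0128). Fgl2 passed the filter on low counts through the vehicle mice alone, so that its call adds nothing to these counts. It was detected in 22.6, 37.04, 9.18 and 5.08% of the cells, against 17.1, 7.55, 12.6 and 12.2% of B cells. Thinned to 1500 UMIs per cell it was expected in 18.9, 16.6, 3.44 and 2.87% of the cells and in 3.08, 1.56, 3.33 and 2.30% of B cells, so that both vehicle mice were above this background and both PM mice near it. DESeq2 did not call it (adjusted p = 0.141). In the cells outside the T cell gate its level was flat, at 69.7, 61.8, 67.97 and 66.3 CPM.

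Without the mixed cells 8 further genes were called, and 6 of them were lower after PM. Xcl1 (ENSMUSG00000026573, chr1:164931644-164935527, minus strand) encodes lymphotactin, the chemokine for Xcr1-positive dendritic cells. It had 342 CPM in vehicle 1, 149.8 in vehicle 2, 56.8 in PM 1 and 35.01 in PM 2 over all cells, and a log2 fold change of -2.28 ± 0.41 with all cells (edgeR Benjamini-Hochberg adjusted p = 0.0552) and of -2.17 ± 0.42 without mixed cells (edgeR Benjamini-Hochberg adjusted p = 0.045). Every PM value was below every vehicle value, though vehicle 1 and 2 differed from each other, and the transcript was found in 14 of 31, 9 of 27, 16 of 98 and 8 of 59 cells. Cxcr6 (ENSMUSG00000048521, chr9:123806475-123811760, plus strand), the Cxcl16 receptor of tissue-resident and effector memory T cells, had 342 CPM in vehicle 1, 258 in vehicle 2, 95.2 in PM 1 and 129.5 in PM 2. Its log2 fold change was -1.38 ± 0.28 (edgeR Benjamini-Hochberg adjusted p = 0.0928) with all cells and -1.35 ± 0.27 (edgeR Benjamini-Hochberg adjusted p = 0.0412) without mixed cells, and it was found in 61.3, 48.1, 29.6 and 37.3% of the cells.

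Serpina3g, an intracellular inhibitor of cathepsins that supports memory CD8 T cells, had 293 CPM in vehicle 1, 149.8 in vehicle 2, 64.1 in PM 1 and 38.5 in PM 2, a log2 fold change of -1.89 ± 0.39 without mixed cells (edgeR Benjamini-Hochberg adjusted p = 0.0412; 0.0928 with all cells). AW112010, an interferon-inducible transcript annotated as lincRNA, had 1084 CPM in vehicle 1, 1198 in vehicle 2, 533 in PM 1 and 578 in PM 2, a log2 fold change of -0.998 ± 0.19 without mixed cells (edgeR Benjamini-Hochberg adjusted p = 0.0245; 0.0928 with all cells). S100a4, a calcium-binding protein of motile and memory T cells, had 236 CPM in vehicle 1, 408 in vehicle 2, 152 in PM 1 and 119 in PM 2 and changed by -1.51 ± 0.27 without mixed cells (edgeR Benjamini-Hochberg adjusted p = 0.0158; 0.184 with all cells). For these 3 genes the groups did not overlap. Mdfic, a regulator of transcription, had 89.6 CPM in vehicle 1, 149.8 in vehicle 2, 27.5 in PM 1 and 24.5 in PM 2 and changed by -2.11 ± 0.45 (edgeR Benjamini-Hochberg adjusted p = 0.0491 without and 0.116 with mixed cells). Mdfic passed the filter on low counts through the vehicle mice alone, so that its call adds nothing to the counts of called genes. Serpina3g, S100a4 and Mdfic were transcribed outside the T cell gate too, at 11.1, 6.07, 8.85 and 8.12, 264, 347, 339 and 212 and 15.2, 14.1, 15.4 and 15.4 CPM.

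Of the 2 further genes that were higher without mixed cells, Satb1, a chromatin organizer of naive and developing T cells, had 473 CPM in vehicle 1, 266 in vehicle 2, 694 in PM 1 and 1001 in PM 2, with a log2 fold change of 1.23 ± 0.26 (edgeR Benjamini-Hochberg adjusted p = 0.0483; 0.158 with all cells). It was found in 54.8, 40.7, 79.6 and 76.3% of the cells and in 53.7, 46.9, 54.03 and 59.7% of B cells, which transcribe it too, and PM mice were above vehicle mice on both scales. Cd74, the MHC class II invariant chain of B cells and dendritic cells, had 0, 8.32, 326 and 102 CPM, and 0, 8.32, 106 and 102 CPM without mixed cells (edgeR Benjamini-Hochberg adjusted p = 0.0121; 0.338 with all cells). Cd74 passed the filter on low counts through the PM mice alone, so that its call adds nothing to the counts of called genes. It moved with the B cell sum given above, of which it was the most abundant gene, and the part of B cell RNA in it was not tested. Below the 1% limit, single large cells still held 0.929 and 0.310% (PM 1) and 0.650% (PM 2) B and plasma cell transcripts. The medians over all Ccl5 CD8 T cells were 0.0476% in PM 1 and 0.0294% in PM 2. The values without mixed cells can thus rest on a few cells near the limit. Mat2a, which makes S-adenosylmethionine (163, 233, 421 and 385 CPM), and Ppp1r14b, a phosphatase inhibitor (65.2, 108, 190.4 and 273 CPM), were higher in all 4 vehicle-PM pairs and were called in neither fit (edgeR Benjamini-Hochberg adjusted p = 0.176 and 0.176 with all cells).

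**Figure D4:**
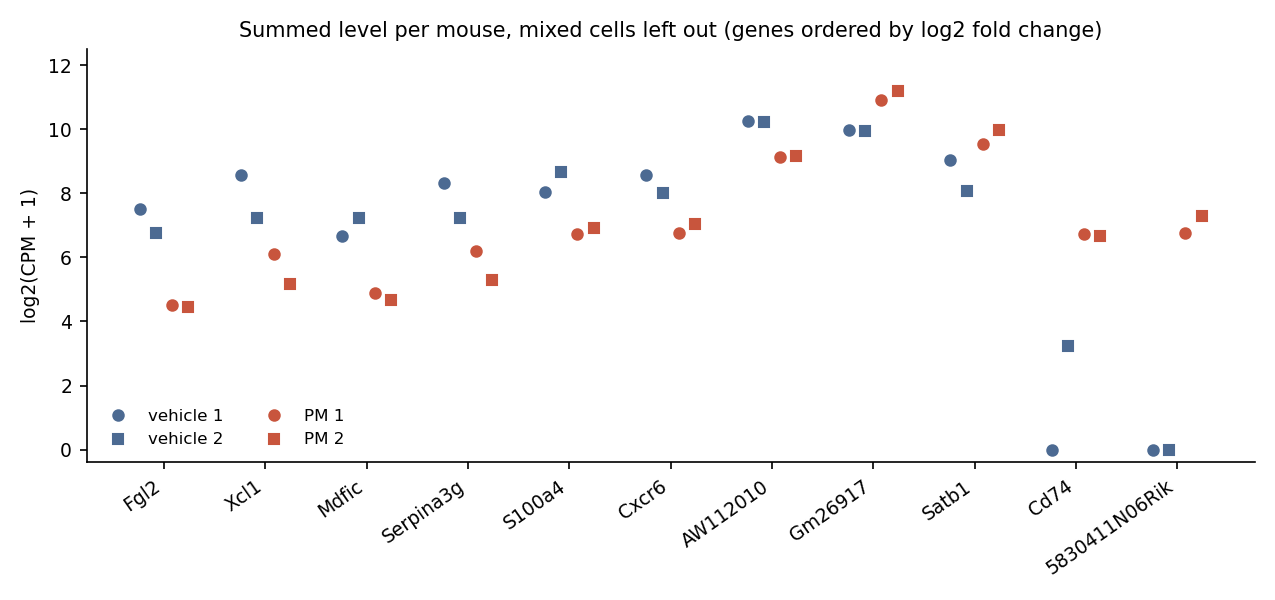
Level, log2(CPM + 1), in each mouse of the 11 genes called without mixed cells, 4 higher and 7 lower after PM; each point is 1 mouse. For each gene the 2 PM mice lie on 1 side of the 2 vehicle mice, with 5830411N06Rik at 0 in both vehicle mice.

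T-box and RUNX factors control many effector genes of CD8 T cells, and the promoters of 4 effector or homing genes with lower values after PM are shown so that the motifs of these factors can be looked for. The windows cover 250 bases before to 50 after the start of transcription of the RefSeq annotation of GRCm38.p6, 5′ to 3′ on the gene's strand. Capitals mark matches on either strand to the RUNX motif TGTGGT, found in 16.8% of 32851 promoter windows, the T-box motif GGTGTGA (3.98%), which can overlap a RUNX match, the AP-1 motif TGANTCA (7.81%) and the ETS motif CCGGAAGT (3.89%). Xcl1 lies at chr1:164935473-164935772 (minus strand), Cxcr6 at chr9:123806227-123806526 (plus strand), Gzmk at chr13:113180916-113181215 (minus strand) and Fgl2 at chr5:21372423-21372722 (plus strand).
Xcl1: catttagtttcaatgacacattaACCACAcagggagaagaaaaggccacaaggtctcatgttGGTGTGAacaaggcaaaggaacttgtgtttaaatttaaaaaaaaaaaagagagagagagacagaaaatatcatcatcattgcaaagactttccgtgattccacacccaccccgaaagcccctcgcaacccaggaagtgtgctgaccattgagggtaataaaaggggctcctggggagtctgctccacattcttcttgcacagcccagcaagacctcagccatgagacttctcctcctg
Cxcr6: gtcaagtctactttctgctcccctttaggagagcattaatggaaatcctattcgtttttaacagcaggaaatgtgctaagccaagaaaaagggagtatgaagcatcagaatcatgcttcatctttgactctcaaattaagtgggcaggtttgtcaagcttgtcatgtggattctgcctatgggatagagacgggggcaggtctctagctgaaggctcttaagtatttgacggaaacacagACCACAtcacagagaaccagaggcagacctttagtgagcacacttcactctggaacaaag
Gzmk: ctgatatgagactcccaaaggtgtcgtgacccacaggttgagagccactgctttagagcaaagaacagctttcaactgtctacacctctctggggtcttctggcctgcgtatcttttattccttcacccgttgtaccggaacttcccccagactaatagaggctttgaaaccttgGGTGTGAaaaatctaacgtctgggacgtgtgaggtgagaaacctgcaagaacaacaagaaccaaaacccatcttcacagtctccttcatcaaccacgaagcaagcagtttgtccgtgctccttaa
Fgl2: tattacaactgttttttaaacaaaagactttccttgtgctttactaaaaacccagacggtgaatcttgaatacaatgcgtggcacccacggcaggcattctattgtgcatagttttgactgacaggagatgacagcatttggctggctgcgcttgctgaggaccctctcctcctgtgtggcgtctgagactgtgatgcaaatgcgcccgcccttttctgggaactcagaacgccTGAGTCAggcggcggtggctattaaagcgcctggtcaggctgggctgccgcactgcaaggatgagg
The Xcl1 window held a RUNX and a T-box match, that of Cxcr6 a RUNX match, that of Gzmk a T-box match and that of Fgl2 an AP-1 match. Of the called genes not shown, Serpina3g held a RUNX match. The windows of Satb1, S100a4, AW112010, Mdfic and 5830411N06Rik held no match to these letters. Gm26917 had no window in this annotation, and that of Cd74 was not searched. A match describes the sequence only.

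For each gene list below, the counts stand beside 5.28% higher and 4.25% lower of all tested genes at an unadjusted p under 0.05. Members that passed the filter on low counts only through the group where they are high were not taken out of these counts. A log2 fold change above 0 was found in 50.5% of all tested genes. Cytotoxic genes showed no call. Of 13 members 11 were tested, with a median log2 fold change of -0.32 against 0.00 over all tested genes, 0 and 2 at an unadjusted p under 0.05 in the higher and lower direction, and 6 whose groups did not overlap in the lower direction, beside 22.3% of all tested genes that were lower without overlap and 17.5% that were higher. Gzmk (ENSMUSG00000042385) had 147 CPM in vehicle 1, 99.9 in vehicle 2, 29.3 in PM 1 and 45.5 in PM 2, with a log2 fold change of -1.71 ± 0.43 (edgeR Benjamini-Hochberg adjusted p = 0.184) and of -1.58 without mixed cells (edgeR Benjamini-Hochberg adjusted p = 0.108). The 2 groups did not overlap, and the change was not called in either fit. Fasl, the Fas ligand, had 97.8, 125, 36.6 and 21.01 CPM (edgeR Benjamini-Hochberg adjusted p = 0.184). Gzmk and Fasl passed the filter on low counts through the vehicle mice alone, so that their lower values add nothing to the counts of this list. The abundant granule genes Nkg7 (733, 757, 639 and 532 CPM) and Ctsw (269, 266, 176 and 242 CPM), and Prf1, the pore-forming perforin (130.4 CPM in vehicle 1, 41.6 in vehicle 2, 106 in PM 1 and 80.5 in PM 2), had log2 fold changes of -0.28, -0.32 and 0.21.

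Chemokines and cytokines followed, with 5 of 14 members tested and a median of -0.60. Xcl1 was the member called, by edgeR without mixed cells and by DESeq2 with all cells (adjusted p = 0.0488). Ltb, lymphotoxin beta, had 546, 666, 379 and 385 CPM (log2 fold change -0.60, edgeR Benjamini-Hochberg adjusted p = 0.371), and Ccl4, a chemokine of activated T cells, had 122, 125, 23.8 and 116 CPM, with PM 1 alone low. Receptors and adhesion molecules of homing had 17 of 21 members tested, 16 with a negative log2 fold change, 8 lower and 0 higher at an unadjusted p under 0.05, and a median of -0.62. Of all tested genes, 4.25% were lower and 5.28% higher at this limit. Beside Cxcr6, the integrin chain Itga4 had 448, 558, 258 and 224 CPM (edgeR Benjamini-Hochberg adjusted p = 0.176) and the retention molecule Cd69 had 269, 408, 150.1 and 221 CPM (edgeR Benjamini-Hochberg adjusted p = 0.32). Neither was called, and in both the groups did not overlap. Ly6c2 did not separate the groups, at 1385, 1506, 1432 and 1554 CPM.

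Transcription factors of memory and effector cells had 12 of 17 members tested, 10 with a negative log2 fold change, 4 lower and 0 higher at an unadjusted p under 0.05, and a median of -0.55. Id2, which supports effector and innate-like lymphocytes, had 1230.3 CPM in vehicle 1, 840.4 in vehicle 2, 549 in PM 1 and 539 in PM 2 (log2 fold change -0.87, edgeR Benjamini-Hochberg adjusted p = 0.184), and Bhlhe40 had 261, 99.9, 29.3 and 66.5 CPM (edgeR Benjamini-Hochberg adjusted p = 0.187). Eomes was level, with 222 ± 14.96 CPM (SD, n = 2) in vehicle and 228 ± 16.1 CPM (SD, n = 2) in PM mice, and Runx3, which specifies the CD8 lineage, had 326, 249.6, 280.1 and 280.1 CPM. Genes of naive and stem-like T cells stood on the other side, with 14 of 16 tested, 12 positive, 3 higher and 0 lower at an unadjusted p under 0.05, and a median of 0.48. Satb1 was the member called, without mixed cells and also with called doublets left out (log2 fold change 1.57, edgeR Benjamini-Hochberg adjusted p = 0.000399). Bach2, a repressor of effector genes, had 48.9, 58.2, 106 and 94.5 CPM and Myb 16.3, 24.96, 67.7 and 63.02 CPM (edgeR Benjamini-Hochberg adjusted p = 0.447 and 0.323), whereas Il7r (285, 533, 558 and 578 CPM) had log2 fold change 0.54 and Klf2 (636, 533, 540.1 and 742 CPM) 0.19. Myb passed the filter on low counts through the PM mice alone, so that its higher values add nothing to the counts of this list.

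Checkpoint and costimulatory receptors were sparse, and 5 of 18 passed the filter on low counts, all with a negative log2 fold change and none called (median -1.11). Of these 5, 4 were lower and 0 higher at an unadjusted p under 0.05, beside 4.25% and 5.28% of all tested genes. In 4 the groups did not overlap in the lower direction, beside 22.3% of all tested genes. Cd226, an activating receptor for CD155, had 261 CPM in vehicle 1, 325 in vehicle 2, 108 in PM 1 and 158 in PM 2 (edgeR Benjamini-Hochberg adjusted p = 0.184) and Cd160 89.6, 175, 62.3 and 49.01 CPM (edgeR Benjamini-Hochberg adjusted p = 0.333). Of the receptors and regulators the study examined in T cells, Pdcd1 (16.3, 8.32, 1.83 and 3.50 CPM), Prdm1 (24.4, 16.6, 7.32 and 17.5 CPM), Ctla4 (0, 0, 3.66 and 10.5 CPM) and Tnfrsf9 (0, 0, 9.15 and 7.002 CPM) were too low to be tested in these cells, with at most 24.4 CPM. Of the anergy-associated ubiquitin ligases, Itch (130.4, 108, 95.2 and 129.5 CPM) and Nedd4 (81.5, 133, 109.9 and 70.02 CPM) had log2 fold changes of -0.05 and -0.13, with overlapping groups, and Rnf128 was too low to be tested. For the genes too low to be tested, a change was not detectable at this depth.

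NK receptors on these CD8 T cells had 9 of 14 members tested, 8 with a negative log2 fold change, 3 lower and 0 higher at an unadjusted p under 0.05, and a median of -0.68. Klrc2, an activating partner of Cd94, had 212, 158, 53.1 and 66.5 CPM (log2 fold change -1.59, edgeR Benjamini-Hochberg adjusted p = 0.116), the Ly49 receptor Klra6 had 73.3, 183, 23.8 and 45.5 CPM and Klre1 179, 125, 58.6 and 80.5 CPM, while Klrd1, the Cd94 chain, had 196, 283, 275 and 319 CPM. None was called. Genes of T cell receptor signaling (23 tested, median -0.24) and of the IL-2 and IL-15 receptors (13 of 18 tested, median -0.13) lay nearer to 0, with Trbc1 at 424, 516, 531 and 630.2 CPM and Trbc2 at 888, 1265, 718 and 861 CPM.

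Type I interferon genes held no call at 24 h. Of 49 type I interferon genes 28 were tested, 22 had a negative log2 fold change, 1 was higher and 2 were lower at an unadjusted p under 0.05, and the median was -0.29. Ly6e had 1075, 865, 895 and 805 CPM and Bst2 57.03, 33.3, 98.9 and 109 CPM (edgeR Benjamini-Hochberg adjusted p = 0.329), and Isg15 at 106, 24.96, 47.6 and 0 CPM was not tested. MHC class I and peptide loading genes (20 tested, median -0.20) included B2m at 3723, 3553, 2836 and 3144 CPM and H2-K1 at 3487, 3021, 2461 and 3007 CPM. PM inhibits histone deacetylases of classes I and IIb, and of the 11 genes of this family 4 were tested, where Hdac1 (106, 116, 101 and 94.5 CPM), Hdac4 and Hdac7 had log2 fold changes of -0.11, 0.21 and 0.29. Histone genes had a median of 0.16 over 9 tested.

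Immediate early genes, which rise with T cell receptor signals and with tissue handling, had 18 of 27 members tested, 14 with a negative log2 fold change, 6 lower and 1 higher at an unadjusted p under 0.05, and a median of -0.48. Junb had 1173, 924, 242 and 802 CPM, with PM 1 far below the other 3 mice, and Rgs1 had 187, 99.9, 49.4 and 56.02 CPM (edgeR Benjamini-Hochberg adjusted p = 0.213). Of the heat shock genes of handling stress none was called, with a positive log2 fold change in 9 of 9 tested members, 3 higher at an unadjusted p under 0.05, and a median of 0.38, for example Hspd1 at 122, 166, 313 and 249 CPM (edgeR Benjamini-Hochberg adjusted p = 0.213). The part of tissue handling in these values was not tested. Apoptosis genes (15 of 31 tested, median -0.38), glucocorticoid-responsive genes (9 tested, median -0.41), S100 and cytoskeleton genes (22 of 23 tested, median -0.11) and cell cycle genes (21 tested, median 0.10) held no call with all cells. The cell cycle median was -0.17 without mixed cells.

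The Klrc1-positive CD8 T cells with at least 2 Ccl5 UMIs (25, 25, 57 and 67 cells), which the rule left out, were compared in the same mice. No gene of 4274 was called between PM and vehicle in them by edgeR, with 140 higher (3.28%) and 127 lower (2.97%) at an unadjusted p under 0.05. Fgl2 (252, 127, 85.3 and 109.6 CPM), Xcl1 (267, 154, 93.9 and 122 CPM) and Serpina3g (198, 199, 105 and 122 CPM) had negative log2 fold changes there as well, of -0.89, -0.90 and -0.72, none of them called. S100a4 (214, 145, 228 and 192 CPM) had a positive one, of 0.31.

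The difference of the PM effect between both populations was tested as an interaction with the mouse as a block, and 16 of 4694 genes were called (0.341%), 5 with a higher and 11 with a lower log2 fold change in the cells without Klrc1 than in those with it. Gzmk was among them. Its level went from 147 and 99.9 CPM in vehicle to 29.3 and 45.5 CPM in PM mice without Klrc1, and from 22.9 and 27.1 to 42.7 and 88.3 CPM with Klrc1, a difference of -3.06 ± 0.71 on the log2 scale (edgeR Benjamini-Hochberg adjusted p = 0.0253). Without mixed cells, where 3 of 4423 genes were called (0.0678%), it was -3.01 (edgeR Benjamini-Hochberg adjusted p = 0.0908) and not called. Counted jointly, cells with and without Klrc1 bore Gzmk in 12 of 56, 10 of 52, 20 of 155 and 25 of 126 cells, with overlapping groups, and a log2 fold change of -0.52 ± 0.37 (edgeR Benjamini-Hochberg adjusted p = 0.776). Lower Gzmk values after PM were thus seen in the cells without a Klrc1 UMI and higher ones in those with it, and the split rests on the detection of 1 transcript.

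With the Klrc1 condition left out, edgeR called 0 of 6357 genes (0%) over all cells (266 higher and 254 lower at an unadjusted p under 0.05) and 13 of 6290 (0.207%) without mixed cells, 5 higher and 8 lower, among them Gm26917 (log2 fold change 0.92), Satb1 (0.89), Fgl2 (-1.44), Xcl1 (-1.42) and Serpina3g (-1.22), each with an edgeR Benjamini-Hochberg adjusted p = 0.0405. The changes were smaller than in the cells without Klrc1. The other 6 of the 11 genes were not called there. 5830411N06Rik had a log2 fold change of 2.49 (edgeR Benjamini-Hochberg adjusted p = 0.107), Cxcr6 of -0.82 (0.283), AW112010 of -0.63 (0.229), S100a4 of -0.60 (0.348), Mdfic of -1.26 (0.162) and Cd74 of -1.28 (0.908), against its rise without mixed cells.

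**Figure D5:**
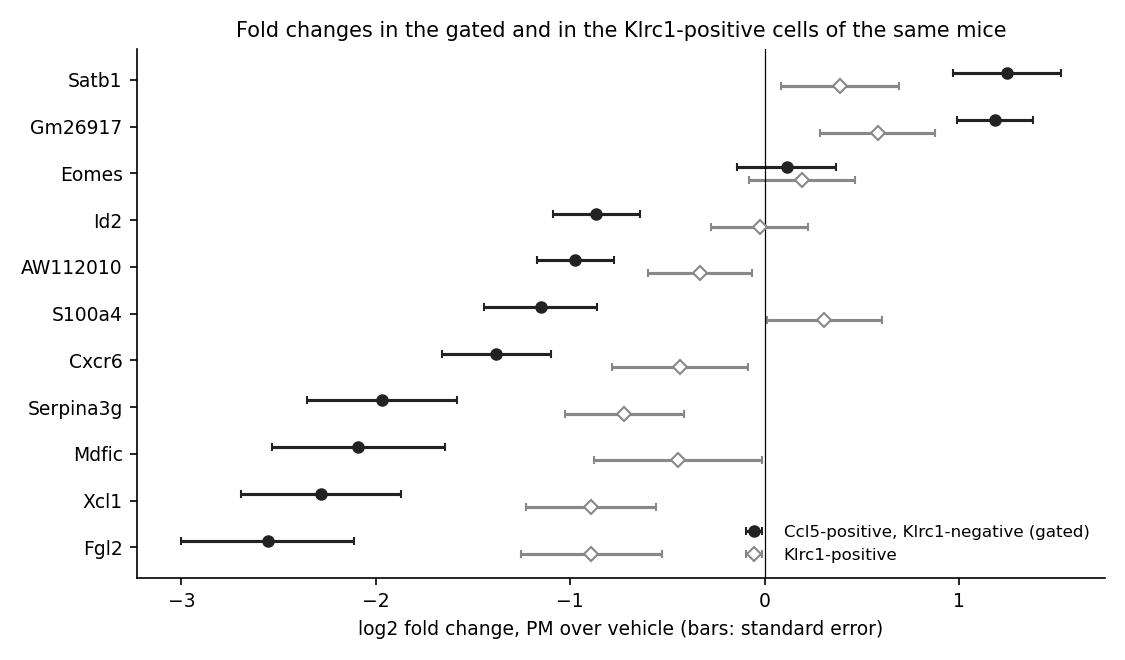
Log2 fold change (PM over vehicle) ± SE from edgeR of 11 genes in the Ccl5 CD8 T cells without Klrc1 and in the Klrc1-positive cells with Ccl5. They are the genes called without mixed cells, except Cd74 and 5830411N06Rik, and also Id2 and Eomes, which were not called. The vertical line is 0. Fgl2, Xcl1 and Serpina3g are negative in both populations and further from 0 without Klrc1, and S100a4 is negative without and positive with Klrc1.

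Ccl5-negative CD8 T cells, which met the same rule with no Ccl5 UMI, numbered only 1 in vehicle 1, and comparisons with them rest on that cell. As a description, the genes most raised in the Ccl5 CD8 T cells over them in all 4 mice were NK receptors (Klrk1, Klrc2, Klra7, Klre1, Klra1, Klrb1c and Cd160), Fasl, the integrin chain Itga1 and Tbx21, the T-box factor T-bet, whereas Bcl6 and the integrin chain Itga6 were among those most lowered. Of 4117 genes, 14 differed in their PM effect between both populations (0.34%), 7 in each direction, and 14 of 4037 without mixed cells (0.347%). Vim, a cytoskeletal filament protein, differed by 2.51 on the log2 scale and S100a10 by 2.32, and Ly6c2 by -3.20 (edgeR Benjamini-Hochberg adjusted p = 0.00017 for Ly6c2), with Ly6c2 listed at 0 CPM in the single vehicle 1 cell.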

How the data were processed

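Single-cell RNA-seq was performed on bone marrow of 2 vehicle-treated and 2 PM-treated 5TMM mice, 1 library per mouse. The authors processed the reads with Cell Ranger 6.0.1, per the file headers, and deposited raw UMI counts per gene and cell barcode without normalization, in units of whole molecules. The paper names the GRCm38 reference and the submitters' processing notes GRCm39; 32235 of the 32285 gene identifiers are in GENCODE M21 of GRCm38, whose coordinates are printed.

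The UMI rule given above was applied to cells that passed 300 genes and did not exceed 20% mitochondrial UMIs. Doublets were called per library with scanpy 1.11.5 (Scrublet scores, the highest 0.8% per 1000 cells) and were not removed. No barcode was shared among the chosen cells. Sums per mouse entered edgeR 4.0.16 in R 4.3.3, with filterByExpr, TMM factors, a robust glmQLFit and glmQLFTest on the condition alone, after a check on simulated data. Genes of the rule stayed in the library sizes but were not tested. Alternatives used DESeq2 1.42.0, other filters and scaling, other limits of the rule, and each mouse left out.

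Cells, gene lists and named genes were chosen with earlier results of these data known. Named genes are the 5 proposed markers, 10 T cell genes the paper names, called genes of 50 CPM or more whose 4 vehicle-PM pairs all point one way, filled to 5 per direction, called and 3 highest members of each list, and the 6 smallest p of each interaction. Others named for their list were chosen after their values were seen, and so was Tfrc. Some named genes are not reported here. Nothing in the labels says how the 2 mice of a group were kept or handled.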

Additional observations from a re-analysis of the deposited data

Results flagged for a closer look

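Differences of the PM effect (log2 fold change in the Ccl5 CD8 T cells minus that in the other population, edgeR interaction test with the mouse as a block) stood out in both comparisons. Against Ccl5-negative CD8 T cells, with 1 such cell in vehicle 1, they were -4.68 for Lyz2, -3.20 for Ly6c2, 2.51 for Vim, -3.47 for Lcn2, -3.87 for Ltf and 2.32 for S100a10. Lyz2, Lcn2 and Ltf are neutrophil transcripts, and mixed cells numbered 1, 0, 9 and 0 among the Ccl5 CD8 T cells and 0, 0, 9 and 0 among the Ccl5-negative ones. Without mixed cells Lyz2 was at -1.46 (edgeR Benjamini-Hochberg adjusted p = 0.996), whereas Ly6c2 (-2.75), Vim (2.73) and S100a10 (2.07) were still called.

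Against Klrc1-positive cells, the differences were -3.61 for Lcn2, -3.93 for Chil3, -5.17 for F630028O10Rik, -3.14 for Cybb and -2.30 for Pglyrp1, all genes of myeloid cells, and -7.86 for the interferon-inducible Ifit1bl1. Ifit1bl1 had 89.6, 83.2, 43.9 and 31.5 CPM in the Ccl5 CD8 T cells and 0, 0, 48.4 and 60.9 CPM in the Klrc1-positive ones, so that its fitted difference rests on sums of 0 and has no exact size. Without mixed cells Lcn2 and Chil3 were at -0.98 and -0.62 and not called, and Ifit1bl1 at -7.99 was called (edgeR Benjamini-Hochberg adjusted p = 0.00861). Called without mixed cells were also S100a4 (-1.96) and the immediate early factor Egr1 (-3.81). Egr1 had 244, 0, 10.99 and 17.5 CPM in the Ccl5 CD8 T cells and 76.3, 18.1, 11.4 and 146 CPM in the Klrc1-positive ones, with overlapping groups, so that its value rests on vehicle 1 and on a sum of 0. Of the genes named in the report, Gzmk differed by -3.06, 5830411N06Rik by 7.45 and Tfrc, the transferrin receptor of dividing cells, by 3.91. Without mixed cells none of these 3 was called (edgeR Benjamini-Hochberg adjusted p = 0.0908, 0.109 and 0.116). The value for 5830411N06Rik rests on 0 UMIs in both vehicle sums and has no exact size either. Tfrc had 8.15, 8.32, 82.4 and 52.5 CPM in the Ccl5 CD8 T cells and 53.4, 81.4, 28.4 and 42.6 CPM in the Klrc1-positive ones. DESeq2 called none of the differences of either comparison.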

How the results depend on the processing

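PM against vehicle had 3 calls in the report and between 2 and 4 with DESeq2, with a minimum of 500 genes and at most 10% mitochondrial UMIs, and with at least 4 Ccl5 UMIs. The count was 5 with library sizes alone, 36 without a filter, 27 with 10 counts in 2 mice, 9 with at least 1 Ccl5 UMI, 44 without called doublets, 0 without innate-like cells, 0 with Cd8b1-positive cells alone (190 higher and 146 lower at an unadjusted p under 0.05) and 0 without the Klrc1 condition. Without mixed cells it was 11, 13 with innate-like cells also left out, 15 with Cd8b1-positive cells alone and 13 without the Klrc1 condition, and 3 with DESeq2. It ranged from 0 to 65 with each mouse left out, where the lone mouse of a group is assumed to vary like the others. With the replicate number as a block it was 7, and 7 also without mixed cells. The labels do not pair the mice, and the deviations of same-numbered mice correlated at 0.109 across 3866 genes. The 14 differences from Ccl5-negative cells became 0 with DESeq2 and 0 to 109 with each mouse left out, and against Klrc1-positive cells they were 0 with DESeq2, 3 without mixed cells and 0 with both, and 4 without vehicle 1, 32 without vehicle 2, 7 without PM 1 and 21 without PM 2 (5, 13, 3 and 3 without mixed cells). The share of kept cells had ratios of 1.75 to 2.74, that of CD8 T cells 0.526 to 0.899, and that of all T cells, 1.03 in the report, lay on both sides of 1, from 0.947 to 1.41. Of 1539 values of 60 tested genes under the alternatives, 1300 kept direction and call, 99 (of 21 genes) kept the call and changed sign with either value within its SE, 122 gained and 18 lost a call. In 26 alternatives 5830411N06Rik was called in 20, Gm26917 in 21, Xcl1 and Serpina3g in 16, Satb1 and AW112010 in 13, Cxcr6 and S100a4 in 10 and Gzmk in 2, in 24 Fgl2 in 17 and Mdfic in 5, and in 25 Cd74 in 10. The causes were not tested. The 58 vehicle cells and the 2 mice per group limit the precision.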

Other observations

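Ribosomal protein genes, a list chosen after the values were seen, held no call by edgeR. Of 85 tested members 83 had a positive log2 fold change, against 50.5% of all tested genes. At an unadjusted p under 0.05, 38 were higher and 0 lower, beside 5.28 and 4.25% of all tested genes. In 56 both PM mice were above both vehicle mice, beside 17.5% of all tested genes. The median was 0.38.

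T cell receptor V genes were seldom captured by the 3' libraries. A Trbv gene was found in 1, 1, 2 and 4 cells of vehicle 1, vehicle 2, PM 1 and PM 2 and a Trav gene in 3, 4, 7 and 3, too few to describe clones.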
